A study of Mus musculus with 16 samples.

Results

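The genes of the phagocyte NADPH oxidase and of the enzymes that clear its products were followed in microglia sorted from the brains of 5xFAD mice and of WT mice. They were 5 oxidase genes (Cybb, Cyba, Ncf1, Ncf4 and Hvcn1) and 4 antioxidant enzyme genes (Sod1, Sod2, Gpx1 and Prdx1). The choice was made by name, with earlier results of these data known. All 9 had a row in the deposited table, out of 17951 genes. The study compared 3 groups: microglia of WT mice (7 libraries), microglia of transgenic mice without the amyloid dye Methoxy-X04 (TG Me-X04-, non-phagocytic, 5 libraries) and transgenic microglia that had taken up dye-stained amyloid (TG Me-X04+, phagocytic, 4 libraries). 5xFAD mice carry human transgenes with mutations of familial Alzheimer's disease, driven in neurons by a Thy1 promoter, so the microglia do not make the amyloid themselves. All mice, WT included, had received the dye by injection before the sort, and the sort took live single cells positive for CD11b, CD45 and CX3CR1.

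By the labels, WT mice were 2 months old and transgenic mice 6 months, so genotype and age cannot be told apart in the comparisons with WT, and the study's methods give other ages. In 4 cases a phagocytic and a non-phagocytic library of one number carried the same label in the genotype field (TG1 to TG4), read here as the animal, and TG Me-X04- replicate 5 had no partner. Depth ran from 15623664 to 27579017 reads on the listed genes per library. All 14 microglial marker genes looked for had a row, with a summed level of 5338 to 9765 RPKM (reads per kilobase of gene, relative to library size) in the 16 libraries. The libraries fell into 2 sets across all groups on the first principal component of their deviations from the group means, which held 37.8% of that variance. Set A held 7 libraries (WT replicates 1 to 3, replicates 1 and 2 of each transgenic group) and set B the other 9. The methods name 2 sequencing instruments, and which library was run on which is not given in the sources used here. Reads on the mitochondrial genome made up 12.6% to 31.3% of a WT library, 20.6% to 44.8% of a non-phagocytic and 31.3% to 56.8% of a phagocytic library.

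The phagocyte oxidase moves electrons from NADPH across the membrane to oxygen and so makes superoxide on the outer or vacuolar side. Its membrane core is a heterodimer of gp91phox (Cybb), which carries the electrons, and p22phox (Cyba), which stabilises it. The cytosolic subunits p47phox (Ncf1, the organiser) and p40phox (Ncf4) join the core on activation together with a Rac GTPase, and the proton channel Hv1 (Hvcn1) balances the charge that the electrons carry. Superoxide is turned into hydrogen peroxide by superoxide dismutases, Sod1 in the cytosol and Sod2 in mitochondria. Peroxides are then reduced by glutathione peroxidase 1 (Gpx1) with glutathione and by peroxiredoxin 1 (Prdx1) with thioredoxin. In microglia the oxidase is known for the respiratory burst that accompanies phagocytosis.

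The promoters of the 4 genes on which the results turn are shown first, since Cybb, Sod1 and Prdx1 were called higher in TG Me-X04+ than in WT microglia and Ncf1 was the one member with an adjusted p under 0.05 and a lower mean in phagocytic than in non-phagocytic cells. They are the 250 bases before and 25 after the RefSeq start site on GRCm38.p6, 5′ to 3′ along the gene, from chrX:9469300-9469574 (minus strand) for Cybb, chr5:134229601-134229875 (minus strand) for Ncf1, chr16:90220512-90220786 (plus strand) for Sod1 and chr4:116685349-116685623 (plus strand) for Prdx1. Capitals mark the letters of 2 motifs on either strand, the core of a PU.1 site (GAGGAA) in Cybb and Prdx1 and an antioxidant response element (TGACNNNGC) in Sod1 and Prdx1.
Cybb: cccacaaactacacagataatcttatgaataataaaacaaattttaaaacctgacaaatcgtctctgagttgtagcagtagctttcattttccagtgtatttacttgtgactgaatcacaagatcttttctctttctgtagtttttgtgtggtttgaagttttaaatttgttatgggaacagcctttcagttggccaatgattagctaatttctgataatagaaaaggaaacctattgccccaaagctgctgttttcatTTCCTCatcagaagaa
Ncf1: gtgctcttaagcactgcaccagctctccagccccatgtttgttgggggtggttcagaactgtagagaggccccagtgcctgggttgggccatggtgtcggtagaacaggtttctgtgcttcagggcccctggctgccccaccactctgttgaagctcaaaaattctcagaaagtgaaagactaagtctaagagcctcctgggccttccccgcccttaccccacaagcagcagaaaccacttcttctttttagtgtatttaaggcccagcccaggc
Sod1: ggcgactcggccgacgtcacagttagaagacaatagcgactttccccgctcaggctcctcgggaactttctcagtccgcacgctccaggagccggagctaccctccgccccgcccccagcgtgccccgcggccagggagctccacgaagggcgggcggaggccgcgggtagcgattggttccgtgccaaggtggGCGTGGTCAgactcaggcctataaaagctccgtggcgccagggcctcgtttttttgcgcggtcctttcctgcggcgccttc
Prdx1: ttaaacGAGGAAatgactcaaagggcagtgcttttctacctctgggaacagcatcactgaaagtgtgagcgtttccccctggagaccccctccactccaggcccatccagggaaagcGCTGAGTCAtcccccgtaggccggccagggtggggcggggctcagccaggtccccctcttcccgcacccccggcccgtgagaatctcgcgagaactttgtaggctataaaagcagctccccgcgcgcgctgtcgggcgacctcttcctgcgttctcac

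The table of promoters (250 bases before to 50 after a start) held 7 of the 9 genes, without Ncf4 and Hvcn1. The PU.1 core stood in 3 of the 7 windows (Cybb, Sod2 and Prdx1) and in 28.3% of all 32851 promoters. The antioxidant response element stood in 2 of the 7 (Sod1 and Prdx1) and in 12.4% of all promoters, and in Prdx1 it overlapped an AP-1 site (TGANTCA, in 7.81% of all promoters). The element began 56 bases before the start in Sod1 and 133 before it in Prdx1. A TATA box (TATAAA) stood in the same 2 genes, Sod1 and Prdx1, and in 13.6% of all promoters. The GC box (GGGCGG) stood in 6 of the 7 windows, the exception being Cybb, and in 35.7% of all promoters. In GC content over the 275 bases shown above for 4 of them, Cybb was the lowest of the 7 at 33.8% and Sod1 the highest at 66.9%. These are matches of letters and not sites known to be bound.

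Cybb, the electron-carrying subunit, had the widest spread of levels over the 3 groups. Its WT libraries ran from -1.99 over a median of -0.53 to 0.54 log2 RPKM. The 5 TG Me-X04- libraries read 2.66, 1.05, 0.77, 0.64 and -0.18 log2 RPKM in the order of their replicate numbers, and the 4 TG Me-X04+ libraries 3.35, 3.93, 2.57 and 3.06. All 4 TG Me-X04+ libraries lay above all 7 WT libraries, whereas the transgenic groups overlapped through TG Me-X04- replicate 1 alone, which lay above TG Me-X04+ replicate 3. In reads, Cybb had 35 to 138 per WT library, 124 to 604 per TG Me-X04- library and 782 to 1324 per TG Me-X04+ library.

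The differences were tested with limma over all genes at once, and a gene was called at an adjusted p under 0.05 and a log2 fold change of at least 0.7 in size. A log2 fold change here is a difference between group means of log2 RPKM. Cybb was 2.24 log2 units higher in phagocytic than in non-phagocytic transgenic microglia (95% confidence interval 1.04 to 3.44, limma adjusted p = 0.0283), and 3.76 higher than in WT (interval 2.64 to 4.88, limma adjusted p = 0.00011). These differences are 4.72-fold and 13.6-fold. Between TG Me-X04- and WT the difference was 1.52 (interval 0.48 to 2.57, limma adjusted p = 0.545) and was not called. In bulk samples of this kind, fewer cells of a type and less RNA per cell cannot be told apart.

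The call of Cybb between the transgenic groups was sensitive to single libraries. With a term for the 2 sets the difference was 2.14 (limma adjusted p = 0.0055). The call held in 11 of 16 fits with 1 library left out and in 12 of 14 other settings. It was lost without TG Me-X04- replicate 3, 4 or 5 or TG Me-X04+ replicate 1 or 2 (differences of 1.95 to 2.20, limma adjusted p of 0.0588 to 0.0902). It was also lost with the animal as a block (1.95, limma adjusted p = 0.0642) and after quantile normalization (2.26, limma adjusted p = 0.0547). Within set A the difference was 1.79, and within set B 2.40. Without TG Me-X04- replicate 1, the library that overlapped, it was 2.66 (limma adjusted p = 0.0079).

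Markers of neutrophils, which also carry the oxidase, were present at low levels in some of the same libraries. Of 9 such markers looked for, 3 had a row (S100a8, S100a9 and Ngp), and their summed level was 26.0 RPKM in TG Me-X04- replicate 1 against 0.49 to 1.03 RPKM in the other 4 TG Me-X04- libraries. In the TG Me-X04+ libraries the sum was 21.0, 7.90, 7.96 and 0.40 RPKM in the order of the replicate numbers, and in WT it ran from 0.40 to 12.7 RPKM. In TG Me-X04+ replicate 4 all 3 markers were at 0 reads (0.40 RPKM is what the table gives such a sum), its monocyte and border macrophage sums were 1.21 and 4.08 RPKM, and Cybb stood at 3.06 log2 RPKM. The sum over the 4 of 6 monocyte markers with a row was 1.21 to 10.2 RPKM in TG Me-X04+ against 2.32 to 4.29 in WT, and that over 6 of 7 markers of border macrophages 2.76 to 20.8 against 2.48 to 5.97. Of the 4 monocyte markers, Fn1 was called higher in TG Me-X04+ than in WT (log2 fold change 4.58, limma adjusted p = 0.0017, on 0 to 257 reads per library) and Ccr2 lower (-1.57, limma adjusted p = 0.00086). The part of such cells in the level of Cybb was not tested.

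**Figure D1:**
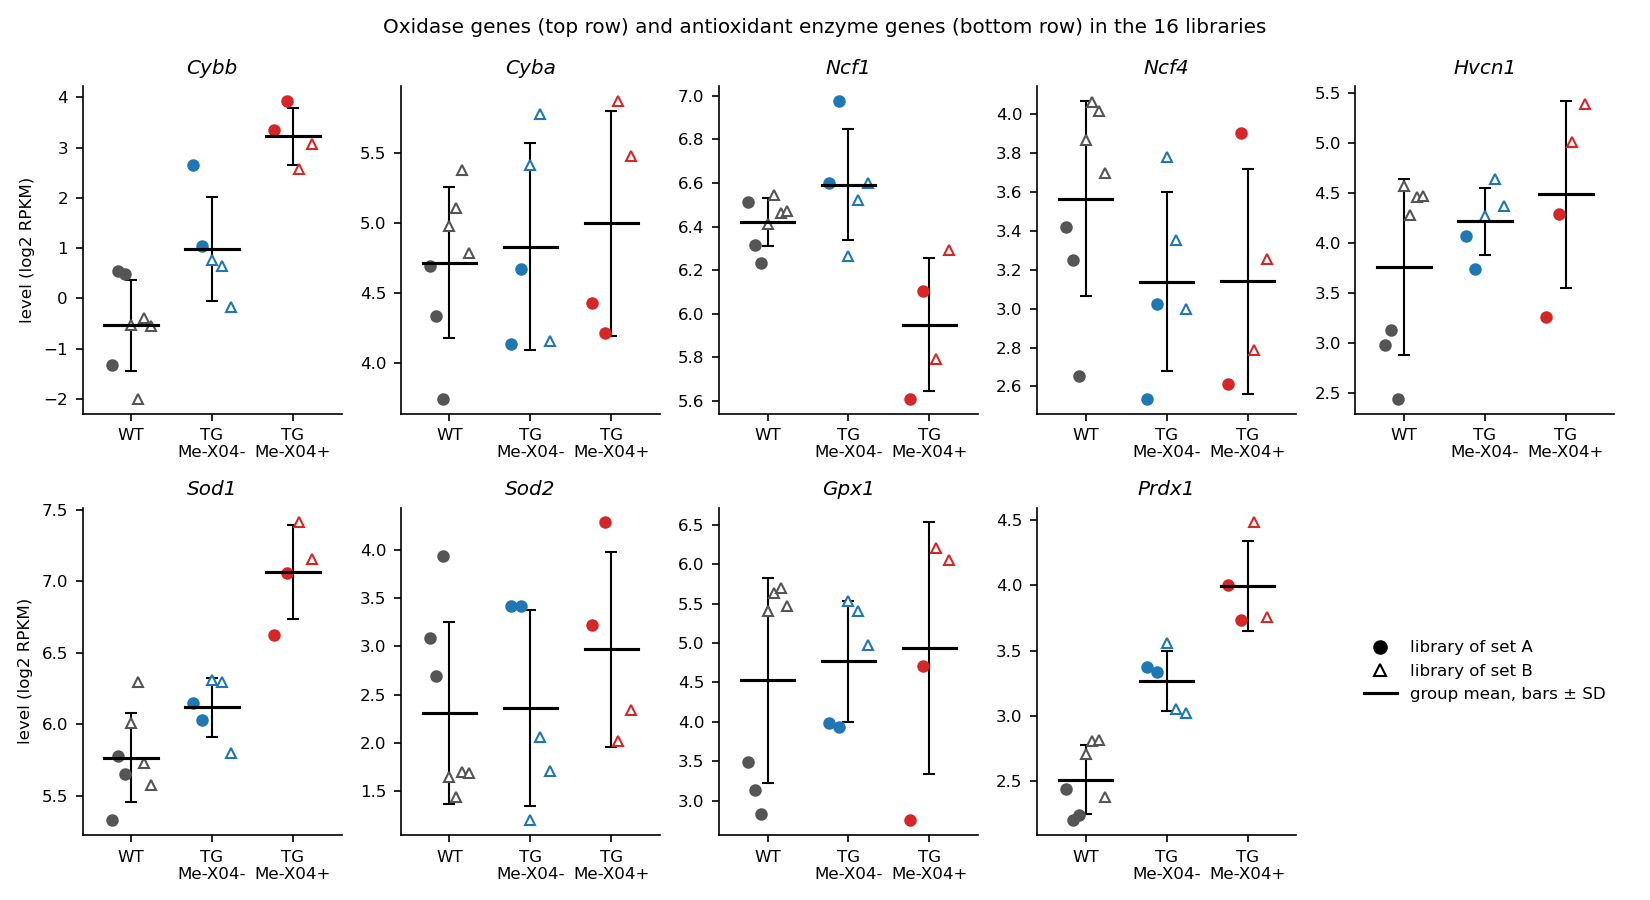
Level of each gene in log2 RPKM (y axis, a different range in each panel) in the 16 libraries by group, with circles for libraries of set A, triangles for set B, and bars for the group mean ± SD. Cybb, Sod1 and Prdx1 lie highest in TG Me-X04+ and Ncf1 lowest there. For Sod2 and Gpx1 the sets lie apart while the groups overlap.

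The other membrane and cytosolic genes of the oxidase were not called with Cybb. Cyba, the partner of Cybb in the core, stood at 4.72 ± 0.54 log2 RPKM in WT (SD, n = 7), at 4.83 ± 0.74 in non-phagocytic (n = 5) and at 5.00 ± 0.81 in phagocytic microglia (n = 4). Its difference between the transgenic groups was 0.17 (interval -0.71 to 1.04, limma adjusted p = 0.877), and this interval leaves out a change of the size seen for Cybb. The level of Cybb relative to Cyba in the same library was -5.25 ± 1.32 log2 units in WT, -3.84 ± 1.43 in non-phagocytic and -1.77 ± 1.35 in phagocytic microglia (SD). Its ranges were -7.10 to -3.26, -5.14 to -1.47 and -3.31 to -0.28 in that order, so the groups overlapped. In set A its means were -4.36, -2.55 and -0.68, and in set B -5.93, -4.71 and -2.86.

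Ncf1, the organiser subunit, was the highest of the 9 genes in WT and TG Me-X04- microglia and the only one of the 9 with a lower level in the phagocytic group at an adjusted p under 0.05 (as 5.58% of all genes had, in either direction). Its WT libraries lay between 6.23 and 6.54 log2 RPKM with a median of 6.46. TG Me-X04- libraries read 6.60, 6.98, 6.27, 6.52 and 6.60, and TG Me-X04+ libraries 5.61, 6.10, 5.79 and 6.29. The transgenic groups overlapped by 1 library on each side, TG Me-X04- replicate 3 and TG Me-X04+ replicate 4.

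The difference in Ncf1 was -0.64 (interval -1.03 to -0.26, limma adjusted p = 0.0483), which is a ratio of 0.641 and smaller than the fold threshold, so Ncf1 was not called. It was called in the same direction after quantile normalization (-1.17, limma adjusted p = 0.00328), with library sizes taken from reads outside the mitochondrial genome (-0.92, limma adjusted p = 0.00615) and without TG Me-X04- replicate 3 or TG Me-X04+ replicate 4. Other alternatives were weaker. Over all of them the difference came as near to 0 as -0.49, and the limma adjusted p rose to 0.174. With 1 library left out the limma adjusted p ran from 0.030 to 0.130. Against WT the difference of TG Me-X04+ was -0.47 (limma adjusted p = 0.0753), and after quantile normalization it was called lower (limma adjusted p = 0.0014). On the annotation, 408 of the 3663 exonic bases of Ncf1 also lie in exons of Gtf2ird2 on the opposite strand, and Gtf2ird2 itself differed by -0.53 between the transgenic groups (limma adjusted p = 0.433).

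Ncf4, the p40phox subunit, and Hvcn1, the proton channel, were not called in any comparison. Ncf4 stood at 3.56 ± 0.50 log2 RPKM in WT, 3.14 ± 0.46 in non-phagocytic and 3.14 ± 0.58 in phagocytic microglia (SD, n = 7, 5 and 4), and its difference between the transgenic groups was 0.00 (interval -0.70 to 0.70). Hvcn1 stood at 3.76 ± 0.88, 4.22 ± 0.34 and 4.49 ± 0.94 in the same order. Its difference of TG Me-X04+ from WT was 0.73 (interval -0.20 to 1.66, limma adjusted p = 0.310), and it was called with a term for the 2 sets (0.82, limma adjusted p = 0.0154). Of the 3563 exonic bases of Hvcn1, 1574 overlap exons of Tctn1 on the opposite strand, and the sources used here do not say whether reads were counted by strand.

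Among the antioxidant enzymes, Sod1, the cytosolic superoxide dismutase, and Prdx1 were called higher in TG Me-X04+ than in WT microglia. Sod1 ran from 5.33 over a median of 5.73 to 6.30 log2 RPKM in WT. It read 6.15, 6.03, 6.31, 6.29 and 5.80 in TG Me-X04- and 6.63, 7.06, 7.41 and 7.16 in TG Me-X04+. Every TG Me-X04+ library lay above every other library, while WT and TG Me-X04- overlapped.

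Sod1 differed by 0.95 between the transgenic groups (interval 0.50 to 1.40, limma adjusted p = 0.0149, 1.93-fold) and by 1.30 between TG Me-X04+ and WT (interval 0.88 to 1.72, limma adjusted p = 0.00024, 2.46-fold). The difference of TG Me-X04- from WT was 0.35 (interval -0.04 to 0.74) and was not called. The size depended on the scaling. Against WT the difference of TG Me-X04+ was 0.69 after quantile normalization (limma adjusted p = 0.0295), under the fold threshold, so that call was lost. After quantile normalization the difference between the transgenic groups was 0.31 (limma adjusted p = 0.498), and with library sizes from reads outside the mitochondrial genome it was 0.67 (limma adjusted p = 0.0966). With only the transgenic groups in the fit the difference was 0.95 as before and the limma adjusted p 0.0510. Sod1 shares 6.63% of its words of 25 bases with transcripts of other genes, among them Gm8566. Gm8566 differed by 0.86 between the transgenic groups (limma adjusted p = 0.0727) and by 1.43 between TG Me-X04+ and WT (limma adjusted p = 0.00079). The part of such shared reads in the level of Sod1 was not tested.

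Prdx1, the peroxiredoxin whose promoter carries both marked motifs, had its lowest levels in WT, middle levels in TG Me-X04- and its highest in TG Me-X04+, with no overlap between any pair of groups. Its WT libraries lay between 2.20 and 2.81 log2 RPKM with a median of 2.44. TG Me-X04- libraries read 3.37, 3.33, 3.56, 3.05 and 3.02, and TG Me-X04+ libraries 4.00, 3.74, 4.48 and 3.75. The difference was 0.76 from WT to TG Me-X04- (interval 0.35 to 1.16, limma adjusted p = 0.206) and 0.73 from TG Me-X04- to TG Me-X04+ (interval 0.27 to 1.19, limma adjusted p = 0.0622), neither of which was called. The whole difference of TG Me-X04+ from WT, 1.48 (interval 1.05 to 1.91, limma adjusted p = 9.1e-05, 2.79-fold), was called. With a term for the 2 sets, the difference between the transgenic groups was called as well (0.75, limma adjusted p = 0.0150). Prdx1 shares 18.9% of its words of 25 bases with transcripts of other genes, among them Gm7204. Gm7204 differed by 0.65 between the transgenic groups (limma adjusted p = 0.508) and by 1.36 between TG Me-X04+ and WT (limma adjusted p = 0.0471). The part of such shared reads in the level of Prdx1 was not tested.

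Sod2, the mitochondrial superoxide dismutase, and Gpx1 were not called in any comparison, and their spread within a group was wide. Sod2 stood at 2.31 ± 0.95 log2 RPKM in WT, 2.36 ± 1.02 in non-phagocytic and 2.97 ± 1.02 in phagocytic microglia (SD, n = 7, 5 and 4). Gpx1 stood at 4.53 ± 1.30, 4.77 ± 0.76 and 4.93 ± 1.60 in the same order. The intervals of the difference between the transgenic groups ran from -0.66 to 1.87 for Sod2 and from -1.40 to 1.73 for Gpx1, and both include a difference as large as that of Sod1. Of its words of 25 bases, Sod2 shares 29.2% with transcripts of other genes, and Gpx1 0.203%.

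The spread of these 2 genes followed the sets of libraries. Gpx1 was 2.08 log2 units lower in set A than in set B at equal group, and Sod2 1.66 units higher, with a median absolute difference of 0.62 over all genes. Within set B, the 4 WT libraries of Gpx1 lay between 5.41 and 5.70 log2 RPKM. The 3 TG Me-X04- libraries of that set lay between 4.97 and 5.53, and the 2 TG Me-X04+ libraries at 6.06 and 6.20. Within set A the 3 WT libraries lay between 2.84 and 3.49, the 2 TG Me-X04- libraries at 3.99 and 3.94, and the 2 TG Me-X04+ libraries at 2.75 and 4.71, on both sides of the others. Hvcn1 was 1.22 units lower in set A and Cyba 0.92 lower, while Cybb was 0.99 higher there. Ncf1 (0.00), Prdx1 (-0.19) and Sod1 (-0.26) differed least between the sets. Over the 16 libraries the deviations of Hvcn1 and Gpx1 from their group means had a Pearson's r of 0.96, and those of Sod2 and Gpx1 one of -0.79. These correlations describe libraries that share the 2 sets, the scaling and the depth.

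**Figure D2:**
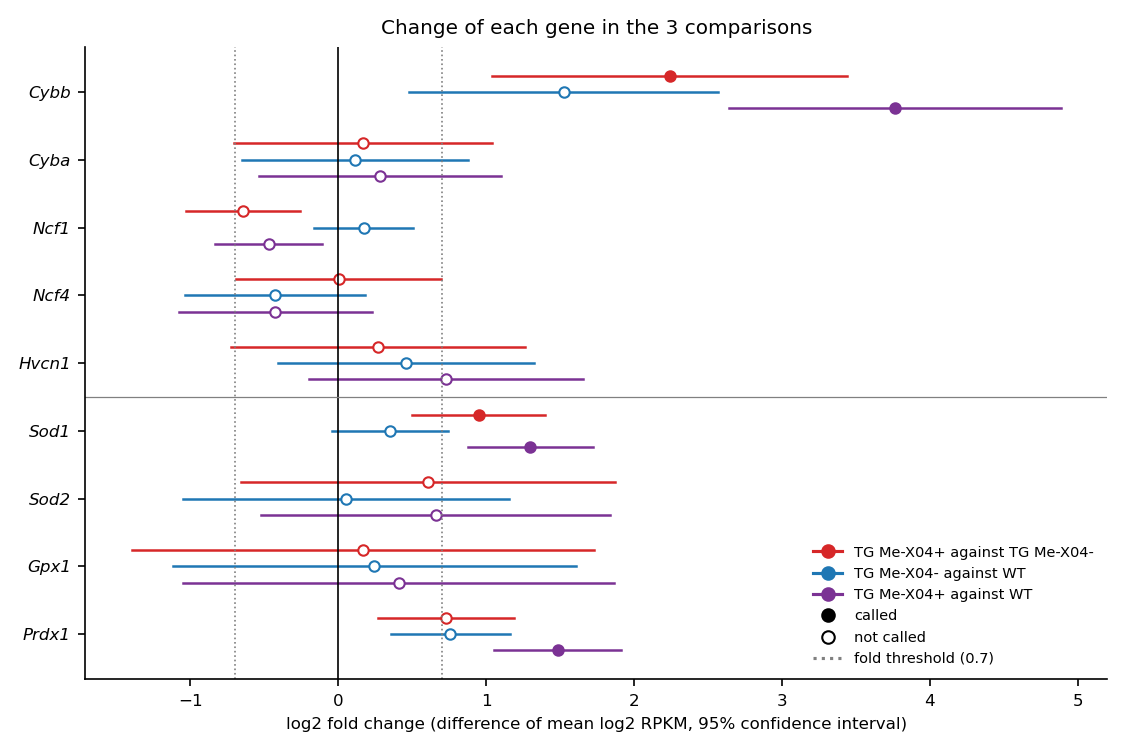
Log2 fold change (x axis) of each gene in the 3 comparisons, with its 95% confidence interval from limma and filled points for called genes. The widest intervals belong to Gpx1 and Sod2, the furthest from 0 to Cybb, and the points of Ncf1 for both TG Me-X04+ comparisons lie left of 0.

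Counted over the 9 genes, 2 were called between the transgenic groups (Cybb and Sod1, both higher in phagocytic microglia), in a comparison in which 5.49% of all 17951 genes were called (3.44% higher). Of the called genes, 62.6% were higher as deposited, 50.8% after quantile normalization and 30.0% with library sizes from reads outside the mitochondrial genome. For TG Me-X04+ against WT the share was 57.8% as deposited and 44.5% with the latter. No gene of the 9 was called between TG Me-X04- and WT by limma, where 0.201% of all genes were called, and 2 (Cybb and Prdx1) had an unadjusted p under 0.05, as 5.18% of all genes had. Between TG Me-X04+ and WT 3 were called (Cybb, Sod1 and Prdx1, all higher), beside 14.3% of all genes called and 8.25% called higher. With so few genes these shares are a description.

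The 2 genes whose phagocytic libraries all lay above the non-phagocytic ones were Sod1 and Prdx1, as was so for 4.8% of all genes. Prdx1 alone of the 9 lay wholly higher in TG Me-X04- than in WT (0.652% of all genes), and Cybb, Sod1 and Prdx1 lay wholly higher in TG Me-X04+ than in WT (6.56% of all genes). The comparisons share groups with each other, so their counts are not independent.

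The oxidase and antioxidant genes were set side by side by their median difference. Between the transgenic groups the median log2 fold change was 0.17 over the 5 oxidase genes and 0.67 over the 4 antioxidant genes, against -0.09 over all genes. Between TG Me-X04+ and WT it was 0.28 and 0.98, against -0.11 over all genes. All 4 antioxidant genes had a difference above 0 in each of the 3 comparisons, beside 44.4% of all genes between the transgenic groups, 51.6% for TG Me-X04- against WT and 44.1% for TG Me-X04+ against WT. The oxidase genes were mixed in sign in each. The signs of Gpx1 and Sod2 were not stable. With 1 library left out, the lowest difference of Gpx1 was -0.26 between the transgenic groups. That of Sod2 was -0.22 for TG Me-X04- against WT.

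Within a library, the mean of the 5 oxidase genes minus the mean of the 4 antioxidant genes was -0.19 ± 0.25 log2 units in WT (SD, n = 7), -0.17 ± 0.13 in non-phagocytic (n = 5) and -0.38 ± 0.21 in phagocytic microglia (n = 4), with overlapping groups. The balance depended on Cybb. Without it the same difference was 0.84 ± 0.34 in WT, 0.57 ± 0.31 in non-phagocytic and -0.10 ± 0.26 in phagocytic microglia. Only TG Me-X04+ replicate 4, at 0.28, of the phagocytic libraries stood above the lowest values of the other groups, which were 0.10 in each.

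Of 7 pairs of genes compared within libraries, some set the phagocytic group apart and others did not. The level of Ncf1 minus that of Sod1 was 0.25 to 1.19 log2 units in the 7 WT libraries and -0.04 to 0.95 in the 5 non-phagocytic ones. In phagocytic microglia it was below 0 in 4 of 4 libraries, between -1.62 and -0.87. Cybb minus Ncf1 was -6.96 ± 1.01 log2 units in WT, -5.60 ± 1.04 in non-phagocytic and -2.72 ± 0.59 in phagocytic microglia. Its ranges were -8.54 to -5.75, -6.77 to -3.94 and -3.23 to -2.17 in that order. In both pairs only the phagocytic libraries stood apart, while WT and non-phagocytic libraries overlapped. Both pairs join Ncf1, with its lower mean there, to a gene called higher in the same libraries. Their separation therefore restates those differences and is no separate result. By contrast, Ncf4 minus Ncf1 was -2.86 ± 0.42, -3.45 ± 0.64 and -2.81 ± 0.41 in the same order, Sod2 minus Sod1 -3.46 ± 1.15, -3.76 ± 1.07 and -4.10 ± 1.22, and Gpx1 minus Prdx1 ran from 0.60 to 3.10, from 0.60 to 2.36 and from -1.25 to 2.31, all with overlapping groups. Cybb minus Sod1 ran from -8.29 to -5.17, from -5.98 to -3.49 and from -4.85 to -3.13 in the same order, so the transgenic groups overlapped. These differences need no scaling between libraries, since both genes are measured in the same one.

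**Figure D3:**
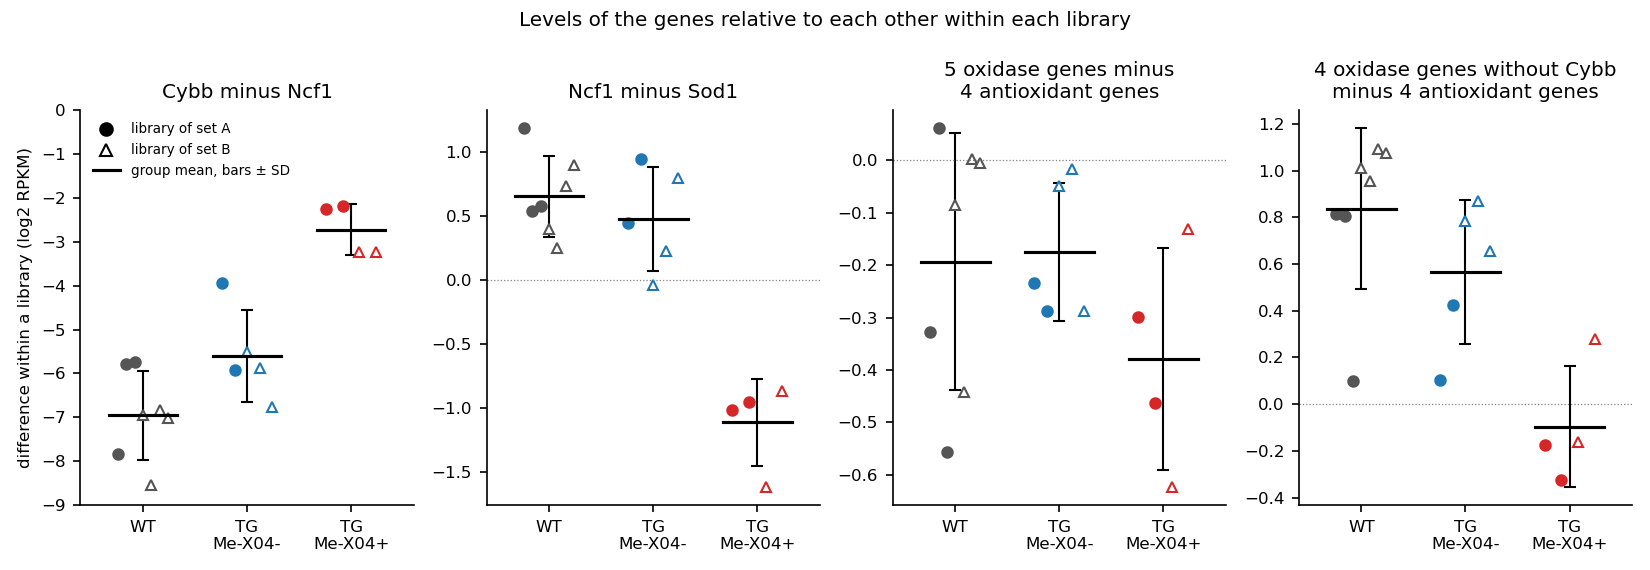
Differences within each library in log2 RPKM (y axis) for Cybb minus Ncf1, Ncf1 minus Sod1, and the mean of the oxidase genes minus the mean of the antioxidant genes with and without Cybb, by group, with bars for the group mean ± SD. Ncf1 minus Sod1 is below 0 in all 4 TG Me-X04+ libraries, and the balance of the means separates the groups less with Cybb than without it.

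The order of the levels per length changed between the groups at its upper and its lower end. In WT it ran Ncf1, Sod1, Cyba, Gpx1, Hvcn1, Ncf4, Prdx1, Sod2 and Cybb. Of these neighbours, Cyba stood above Gpx1 in 3 of 7 libraries, Hvcn1 above Ncf4 in 4 of 7 and Prdx1 above Sod2 in 4 of 7, so those pairs did not differ beyond their spread. The other neighbours kept their order in 7 of 7 libraries. In TG Me-X04- Ncf1 stood above Sod1 in 4 of 5 libraries, and Cybb, again with the lowest mean, stood below Sod2 in 5 of 5. In TG Me-X04+ the order was Sod1, Ncf1, Cyba, Gpx1, Hvcn1, Prdx1, Cybb, Ncf4 and Sod2. There Cybb stood above Ncf4 in 2 of 4 libraries, Ncf4 above Sod2 in 2 of 4 and Cyba above Gpx1 in 1 of 4.

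Other genes of the pathway were taken from 6 lists with 60 names, of which 48 had a row. Between the transgenic groups 3 of the 48 were called, 1 higher and 2 lower (3.44% and 2.06% of all genes). Prdx4, the peroxiredoxin of the endoplasmic reticulum, was higher by 2.47 (interval 1.70 to 3.24, limma adjusted p = 0.00098, 5.54-fold). Its TG Me-X04+ libraries read 4.75, 4.61, 3.91 and 3.51 log2 RPKM and its TG Me-X04- libraries 2.17, 1.44, 1.78, 1.53 and 1.70, without overlap. Txnip, which binds and inhibits thioredoxin, was lower by a log2 fold change of -1.31 (limma adjusted p = 0.001), with TG Me-X04+ libraries at 4.10 to 4.92 and TG Me-X04- libraries at 5.28 to 5.91 log2 RPKM. Duoxa1, the maturation factor of the dual oxidase Duox1, had a log2 fold change of -3.18 (limma adjusted p = 0.0161) on few reads, 0, 0, 6 and 20 in TG Me-X04+ against 31 to 94 in TG Me-X04-.

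Between TG Me-X04- and WT none of the 48 was called by limma (0.201% of all genes), and 2 had an unadjusted p under 0.05 (5.18% of all genes). Between TG Me-X04+ and WT 9 were called, 5 higher and 4 lower (8.25% and 6.02% of all genes). The higher ones were Prdx4 (log2 fold change 2.34), the peroxiredoxin Prdx6 (2.02), thioredoxin Txn1 (1.59), sulfiredoxin Srxn1 (2.52), which repairs overoxidised peroxiredoxins, and the glutathione transferase Gsto1 (1.71). The lower ones were Txnip (-1.75), Duoxa1 (-3.02), Cybc1 (-0.93), a chaperone that the Cybb and Cyba core needs, and Prkcd (-1.06), a kinase that phosphorylates p47phox. So 5 of the 11 genes of the peroxiredoxin and thioredoxin list were called, 4 higher and 1 lower, and 2 of the 11 oxidase assembly and regulator genes, both lower. The lists were written with earlier results of these data known, so these counts only describe the lists. The median log2 fold change was 0.41 over the former list and 0.15 over the latter, against -0.11 over all genes. Of the genes called higher, Srxn1 rested on 0 to 34 reads per WT library and 46 to 117 per TG Me-X04+ library. Prdx6 and Gsto1 each had 1 WT library far below the others, at -2.53 and -0.89 log2 RPKM.

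The Rac GTPases that join the oxidase were not called in any comparison. Between the transgenic groups Rac1 differed by 0.38 and Rac2 by 0.39. Among the antioxidant genes outside the 9, catalase (Cat) differed by 0.95 (interval -0.99 to 2.89) and the lipid peroxidase Gpx4 by 0.01 (interval -1.76 to 1.79). Cat ran from 3.96 to 7.88 log2 RPKM over the 16 libraries, with set A at 6.84 to 7.88 and set B at 3.96 to 4.80. Nfe2l2, which encodes NRF2, the factor that acts through the antioxidant response element, differed by 0.61 (interval -0.30 to 1.53, limma adjusted p = 0.500). Within set A its TG Me-X04- libraries lay at 7.28 to 7.43 log2 RPKM and its TG Me-X04+ libraries at 7.63 to 7.75. Within set B they lay at 5.58 to 6.02 and 6.34 to 6.49 in the same order. For Cat the ranges were 6.87 to 7.32 and 7.76 to 7.88 in set A, and 3.96 to 4.29 and 4.66 to 4.80 in set B. These sets held 2 or 3 libraries of a group, and the differences within them were not tested.

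**Figure D4:**
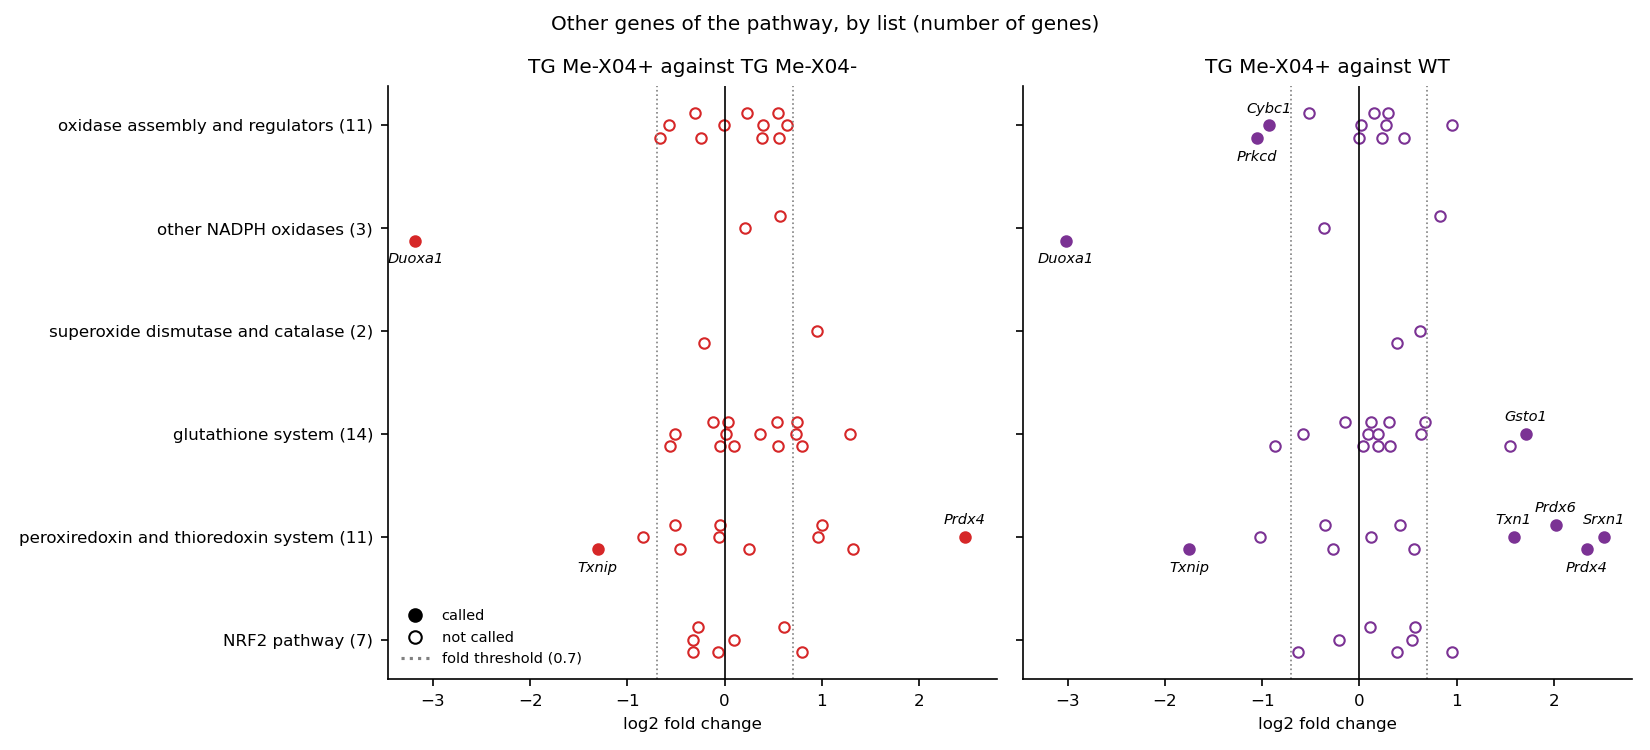
Log2 fold change (x axis) of the 48 other pathway genes by list (y axis, points spread vertically for legibility), between the transgenic groups on the left and between TG Me-X04+ and WT on the right, with filled, named points for called genes. The peroxiredoxin and thioredoxin list holds 2 of the 3 called genes on the left and 5 of the 9 on the right. The lists were written with earlier results of these data known.

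The genes whose pattern over the 16 libraries was most like that of each member were listed by Pearson's r among protein-coding genes with a mean of at least 2 log2 RPKM, as a description of libraries that share groups and sets. For Cybb they were Ifi207 (r = 0.94) and Kcnj2 (0.93), and for Cyba Actg1 (0.94) and Ndufs8 (0.88). Ncf1 was most like Fra10ac1 (0.86) and Zfp217 (0.86), Ncf4 like Chmp3 (0.87) and Btg2 (0.80), and Hvcn1 like Sipa1l2 (0.97) and Gnai2 (0.96). Sod1 was most like Rpl32 (0.97) and Fau (0.96), both of which encode parts of the ribosome. Sod2 was most like Pigb (0.95) and Alg11 (0.95), Gpx1 like Bmyc (0.96) and Actb (0.95), and Prdx1 like H2-D1 (0.95) and Cst7 (0.94). For Prdx1 the r of the deviations from the group means was 0.65 with H2-D1 and 0.47 with Cst7, so part of the likeness lies in the group means. For Gpx1 and Bmyc it was 0.99.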

How the data were processed

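Microglia were measured by bulk RNA sequencing in 16 libraries. The authors trimmed the reads (Trim Galore 0.4.4), aligned them to GRCm38 (STAR 2.5.4b, up to 10 positions per read), counted them on Gencode genes (featureCounts), removed lowly expressed genes and scaled the libraries by TMM with edgeR 3.24.3, per the submitters' processing notes and the methods. The deposited values are log2 RPKM per library. The authors also deposited the gene length and their own fold changes, p-values and scores for 2 comparisons, which were not used. Whether reads were counted by strand is not given in the sources used here.

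The two-sided tests of the log2 RPKM values used limma 3.58.1 (R 4.3.3), fitting the 3 groups together with no covariate and a trend in the empirical Bayes variance. P-values were adjusted by Benjamini-Hochberg over all 17951 genes. The methods' own test needs counts and was not run on log2 values. On the linear scale each library's values rise in equal steps, which gave back whole reads (100% within 0.01 reads) for depths and alternatives. The test was checked on simulated data. Libraries of 1 group carry different numbers in the genotype field (WT1, TG1), read as different animals.

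The 9 genes and the lists were chosen with earlier results of these data known. Named were the 9, every pathway gene called in a comparison, Rac1, Rac2, Cat, Gpx4 and Nfe2l2, and the 2 genes most like each member; 1 further gene of that rule is not reported here. Genes overlapping or resembling a member were looked up afterwards in Gencode M21. The pairing comes from these numbers in the TG libraries, and the deviations from the group means of the 4 pairs correlated at 0.29 to 0.33 (mean 0.27 for other numbers of the same set). Plots used Python 3.11.15 and matplotlib 3.10.9.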

Additional observations from a re-analysis of the deposited data

Results flagged for a closer look

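None of the 9 genes had a library far from its group by Dixon's test (95% level). Among the 15 pathway genes examined, 4 libraries were far from the others. Prdx6 was at -2.53 log2 RPKM in WT replicate 3, next to 0.17 in the nearest other WT library, and at 2.03 in TG Me-X04- replicate 5, next to 1.15. Gsto1 was at -0.89 in WT replicate 1, next to 0.48, and Rac2 at 4.07 in TG Me-X04+ replicate 4, next to 3.65. With 72 groups of values examined, chance alone flags about 1 group in 20.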

How the results depend on the processing

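Between the transgenic groups, the members called numbered 1 after quantile normalization (Ncf1, lower), 1 with only those 2 groups in the fit (Cybb) and 1 with the animal as a replicate block (Sod1), and 1 to 3 with each library left out. Cybb was the gene lost without non-phagocytic replicates 3, 4 and 5 and phagocytic replicates 1 and 2. The other pathway genes called there numbered 5 with library sizes from reads outside the mitochondrial genome, 5 with a term for the 2 sets, and 2 to 4 with each library left out. Against WT, the counts of members stayed at 0 for TG Me-X04- and 3 for TG Me-X04+ with each library left out. After quantile normalization the TG Me-X04+ count was also 3, with Ncf1 called lower in place of Sod1. Over all genes, the 986 called between the transgenic groups became 655 with a filter at a mean of 2, 470 with only those groups and 2142 with the term for the sets, and 552 to 1100 with each library left out (552 without TG Me-X04- replicate 5 and 624 without TG Me-X04+ replicate 2). The 36 called between TG Me-X04- and WT became 175 with library weights, 13 with 1 added to the linear value, 19 and 16 with filters at means of 0 and 2, 101 with the set term and 18 with the block, and 19 to 35 with each library left out (19, 23 and 23 without TG Me-X04- replicates 1, 3 and 4). The 2562 called between TG Me-X04+ and WT became 1419 with the filter at 2 and 3919 with the set term. Scaling by reads outside the mitochondrial genome moved the median of all genes by -0.27 between the transgenic groups, and by 0.11 and -0.16 in the comparisons of TG Me-X04- and TG Me-X04+ with WT. The cause was not tested. In the comparisons with WT the replicate block joined different animals that share only a number, and Hvcn1 was then called between TG Me-X04+ and WT (1.13, limma adjusted p = 0.0473). Apart from Cybb and Hvcn1, the block changed no member's call. No member's called difference changed sign. Depth bears on Cybb in WT, which rests on 35 to 138 reads per library.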
